A study of Mus musculus with 2 samples.

Results

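The 10 genes described here encode semaphorins and plexins: the class 3 semaphorins Sema3a, Sema3b, Sema3c, Sema3d, Sema3e, Sema3f and Sema3g, the related Sema7a, and the plexins Plxnd1 and Plxna2. They were chosen by symbol, as 10 of the 31053 genes in the count matrices, and all 10 had UMIs (unique molecular identifiers, each counting 1 captured transcript) in both libraries. Each was followed by cell type and by library in barcodes with at least 200 detected genes and at most 10% mitochondrial UMIs.

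Class 3 semaphorins are secreted guidance proteins that bind a neuropilin, while a class A plexin paired with it carries the signal into the cell. Sema3e can act through Plxnd1 without a neuropilin, and Sema7a, which is held on the cell surface by a lipid anchor, binds Plxnc1 and integrins that contain Itgb1. Plexins lower integrin adhesion and remodel the actin cytoskeleton, and in blood vessels the family is known for guiding and restraining endothelial sprouts.

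The study set single cells from p47phox-KI (KI) lungs beside single cells from wild-type (WT) lungs. Both groups were mice of strain C57BL/6 with acute lung injury, and each is represented by 1 library. Perfused lungs were digested with collagenase, stained for viability and for the leukocyte antigen CD45.2, sorted and run on the Chromium V3 kit, whose counts come from the 3′ ends of transcripts. p47phox is the product of Ncf1, an organiser of the phagocyte NADPH oxidase; the labels give neither the form of the knock-in nor the agent of injury, the sort gate, or the number, age and sex of the animals.

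The KI library held 43445797 UMIs in 9120 barcodes and the WT library 43376713 UMIs in 10473 barcodes. After filters and removal of doublets, 6636 KI cells and 7735 WT cells remained, with medians of 3774.5 UMIs in KI cells and 3307 UMIs in WT cells. The libraries shared 30 barcode sequences, 14 of them among kept cells of both. Ncf1 itself had 162 UMIs in kept KI cells and 182 UMIs in kept WT cells (4.89 CPM in KI, 5.46 CPM in WT), and a 3′ tag may lie outside the modified part. With 1 library per genotype no difference has a replicate check, genotype and library preparation cannot be told apart, and the 95% intervals below cover counting error only.

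Cells were grouped into 26 clusters with the 10 genes and 62 other pathway genes left out of the clustering, and named by markers with the suffix -like. Levels are given for 10 types with at least 50 cells in each library. The 4 endothelial-like types were aerocyte (1598 KI and 1967 WT cells), general capillary (1808 KI and 2067 WT), arterial (154 KI and 217 WT) and venous (153 KI and 172 WT). The others were adventitial fibroblast (421 KI and 356 WT), alveolar fibroblast (763 KI and 1056 WT), smooth muscle (188 KI and 186 WT), pericyte (399 KI and 374 WT), type 1 alveolar (258 KI and 433 WT) and type 2 alveolar (477 KI and 450 WT). A level, abbreviated CPM, is a gene's UMIs scaled to a total of 1000000 UMIs of that type in that library. It is compared between cells for 1 gene at a time, never between genes. One of the 4 general capillary-like clusters (535 KI and 639 WT cells) was led by heart muscle genes such as Myl7, Sln and Tnnt2 and by haemoglobin genes, which mark cardiac muscle and red blood cells. At least 1 UMI of 6 such heart muscle genes was found in 5.05% of KI and 2.35% of WT cells of that cluster, and of the 9 endothelial markers in 99.6% of KI and 99.7% of WT cells. Its capillary marker genes summed to 12105 CPM in KI and 13257 CPM in WT, beside 15007 CPM in KI and 14333 CPM in WT in the other general capillary-like clusters. Its haemoglobin genes summed to 16061 CPM in KI and 7.70 CPM in WT, with a UMI in 14.2% of KI and 1.88% of WT cells. Outside the general capillary-like type 17.6% of KI and 1.52% of WT cells had a haemoglobin UMI. The cause of this difference between the libraries was not tested.

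RNA released from broken cells gives every droplet some UMIs of abundant genes, so each level outside endothelial-like cells is read beside the 9 endothelial markers, among them Pecam1 and Cdh5. In type 2 alveolar-like cells these markers stood at a median of 0.695% of their endothelial-like level in KI and 1.95% in WT. In type 1 alveolar-like cells they stood at 12.4% in KI and 3.24% in WT.

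Of the 10 genes, 8 matched an entry in the RefSeq promoter table (build GRCm38.p6), each entry running from 250 bases before the start to 50 bases after it. The promoters of Sema7a, Sema3g, Sema3c and Sema3e are shown because these ligands marked different cells: aerocyte-like, arterial-like, general capillary-like and type 1 alveolar-like. Capitals mark GGAAG or its reverse complement CTTCC, the core letters of many ETS factor motifs, searched on both strands. The positions are chr9:57939862-57940161 for Sema7a, chr14:31217623-31217922 for Sema3g, chr5:17574566-17574865 for Sema3c and chr5:14025026-14025325 for Sema3e, all on the plus strand.
Sema7a: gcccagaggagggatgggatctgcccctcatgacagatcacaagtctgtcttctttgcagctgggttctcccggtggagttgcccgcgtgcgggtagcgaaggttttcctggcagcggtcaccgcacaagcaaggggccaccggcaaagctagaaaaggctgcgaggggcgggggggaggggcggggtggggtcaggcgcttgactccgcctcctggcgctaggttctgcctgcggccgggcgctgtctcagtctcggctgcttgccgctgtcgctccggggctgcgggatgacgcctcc
Sema3g: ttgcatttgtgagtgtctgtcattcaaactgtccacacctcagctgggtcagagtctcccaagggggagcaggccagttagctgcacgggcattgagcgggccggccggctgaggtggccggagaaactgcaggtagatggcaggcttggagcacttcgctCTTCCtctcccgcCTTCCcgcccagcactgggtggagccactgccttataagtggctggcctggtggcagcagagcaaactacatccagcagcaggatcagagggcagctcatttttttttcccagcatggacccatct
Sema3c: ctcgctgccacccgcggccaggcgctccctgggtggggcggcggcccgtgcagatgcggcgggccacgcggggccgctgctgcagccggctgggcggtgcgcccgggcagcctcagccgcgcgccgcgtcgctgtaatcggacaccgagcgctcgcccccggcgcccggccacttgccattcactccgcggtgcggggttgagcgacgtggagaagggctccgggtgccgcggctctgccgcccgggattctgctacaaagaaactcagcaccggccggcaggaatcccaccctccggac
Sema3e: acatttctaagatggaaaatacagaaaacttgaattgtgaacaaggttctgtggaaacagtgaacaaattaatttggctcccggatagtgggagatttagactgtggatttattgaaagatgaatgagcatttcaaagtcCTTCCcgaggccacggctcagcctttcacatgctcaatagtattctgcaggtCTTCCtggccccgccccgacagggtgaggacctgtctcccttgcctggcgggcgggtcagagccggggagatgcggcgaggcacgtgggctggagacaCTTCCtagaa

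GGAAG was found at 2 places in the Sema3g window and at 3 in the Sema3e window, and it was not among the letters of the Sema7a and Sema3c windows. Of 32851 promoters of the same length in the table, 71.4% held it. The GC box GGGCGG, or its reverse complement CCGCCC, was found in all 4 windows (2 matches for Sema7a, 1 for Sema3g, 3 for Sema3c and 2 for Sema3e). Over the 8 matched genes it was found in 6 windows, with 0 matches for Sema3a and Sema3d, and 35.7% of all promoters held at least 1. GC content was 67.3% for Sema7a, 58.7% for Sema3g, 75.7% for Sema3c and 50.7% for Sema3e. These are matches of letters and not shown binding sites.

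**Figure D1:**
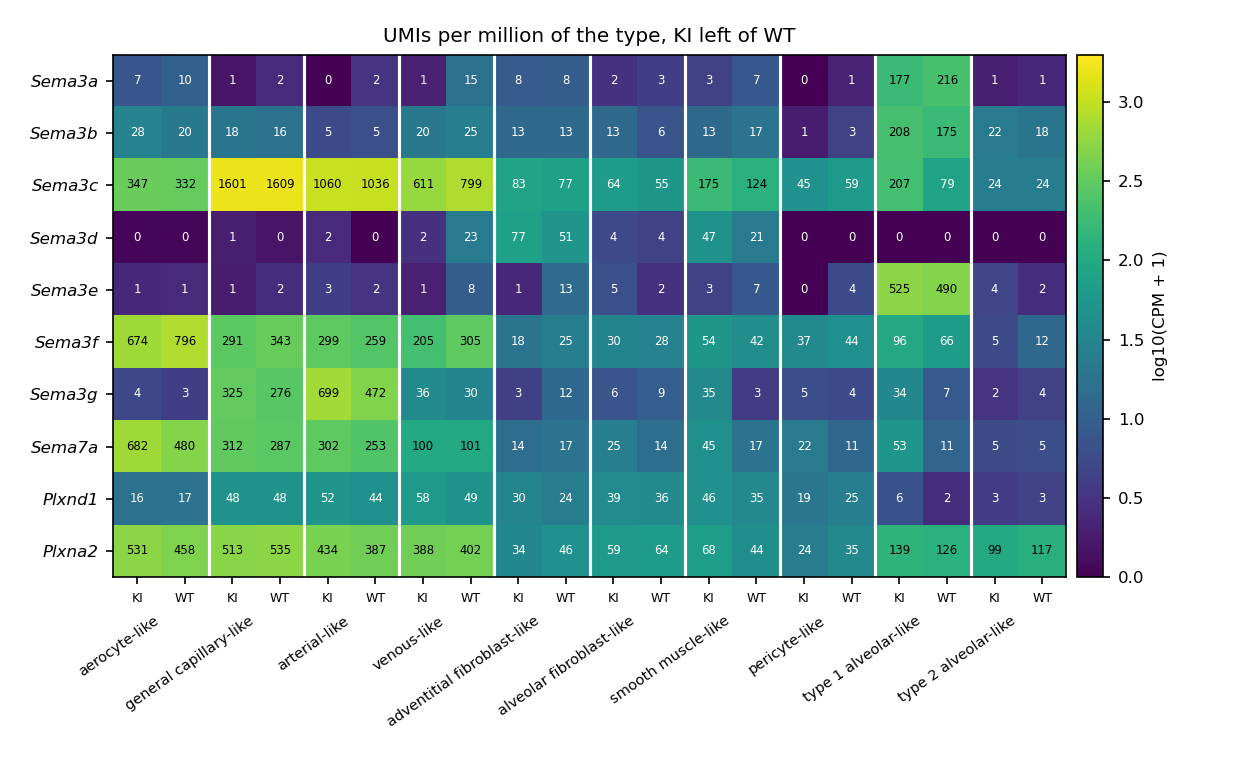
Level of each of the 10 genes (rows) in 10 cell types (columns, KI left of WT), in CPM; colour is log10(CPM + 1). Sema3c, Sema3f, Sema3g, Sema7a and Plxna2 were highest in endothelial-like types, Sema3a, Sema3b and Sema3e in type 1 alveolar-like cells, and Sema3d in adventitial fibroblast-like cells.

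Sema3c, a ligand that signals through neuropilins with Plxnd1 or class A plexins, was the ligand of the general capillary. Its level there was 1601 CPM in KI and 1609 CPM in WT. It stood at 1060 CPM in KI and 1036 CPM in WT in arterial-like cells, at 611 CPM in KI and 799 CPM in WT in venous-like cells, and at 347 CPM in KI and 332 CPM in WT in aerocyte-like cells. This order held in both libraries, and the counting intervals of neighbouring types did not overlap. Without the Myl7-led cluster the general capillary level was 1590 CPM in KI and 1561 CPM in WT. Sema3c was found in 88.7% of KI and 90.6% of WT general capillary-like cells, beside 23.5% of KI and 18.0% of WT type 2 alveolar-like cells, whose median depth was 14479 UMIs in KI and 12907 UMIs in WT. When each cell was thinned to 1000 UMIs the shares were 69.6% of KI and 70.5% of WT general capillary-like cells, against 2.10% of KI and 3.33% of WT type 2 alveolar-like cells. Endothelial-like cells held 87.2% of all Sema3c UMIs in KI and 88.9% in WT.

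Sema3f, a Nrp2-preferring ligand known for repelling endothelial cells, had the opposite order between the capillary types. Aerocyte-like cells, named for the capillary cells at the gas exchange surface, held 674 CPM in KI and 796 CPM in WT. General capillary-like cells held 291 CPM in KI and 343 CPM in WT, arterial-like cells 299 CPM in KI and 259 CPM in WT, and venous-like cells 205 CPM in KI and 305 CPM in WT. The last 3 types could not be ranked, since the libraries gave them different orders and their intervals overlapped.

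Sema3g, a ligand known from arteries, had the widest gap between the capillary types among these ligands. It stood at 699 CPM in KI and 472 CPM in WT in arterial-like cells and at 325 CPM in KI and 276 CPM in WT in general capillary-like cells. In venous-like cells the level was 36.4 CPM in KI and 29.6 CPM in WT, and in aerocyte-like cells 4.22 CPM in KI and 3.08 CPM in WT. Sema3g was thus near the level of type 2 alveolar-like cells (2.19 CPM in KI, 3.53 CPM in WT) in 1 capillary type and far above it in the other.

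Sema7a was highest in aerocyte-like cells, at 682 CPM in KI and 480 CPM in WT. General capillary-like cells had 312 CPM in KI and 287 CPM in WT, arterial-like cells 302 CPM in KI and 253 CPM in WT, and venous-like cells 100.3 CPM in KI and 100.7 CPM in WT. The general capillary and arterial levels did not differ beyond their counting intervals. Outside the endothelial-like types Sema7a stayed between 4.68 and 53.3 CPM in KI and between 5.21 and 17.0 CPM in WT.

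**Figure D2:**
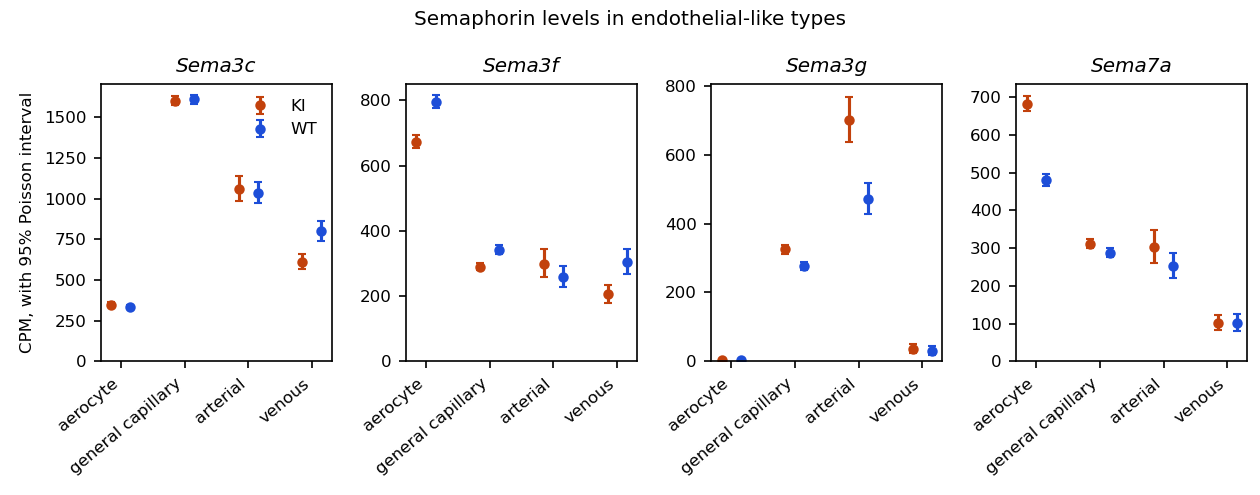
Levels of the 4 endothelial ligands in CPM with 95% Poisson intervals, by endothelial-like type, KI left of WT. Sema3f and Sema7a peak in aerocyte-like cells, Sema3c in general capillary-like cells and Sema3g in arterial-like cells.

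Sema3e, Sema3a and Sema3b formed the type 1 alveolar-like set, the flat cells across which gas is exchanged. Sema3e, the direct ligand of Plxnd1, stood at 525 CPM in KI and 490 CPM in WT there, and at no more than 5.36 CPM in KI and 13.4 CPM in WT in the other 9 types. Sema3a, a collapse factor for growing axons and an inhibitor of endothelial migration, had 177 CPM in KI and 216 CPM in WT, against at most 7.97 CPM in KI and 15.4 CPM in WT elsewhere. Sema3b had 208 CPM in KI and 175 CPM in WT, with lower levels of 22.2 CPM in KI and 18.0 CPM in WT in type 2 alveolar-like cells and 28.4 CPM in KI and 20.4 CPM in WT in aerocyte-like cells. Type 1 alveolar-like cells held 68.3% of all Sema3a UMIs in KI and 73.0% in WT. For Sema3b their share was 28.5% in KI and 38.3% in WT. Endothelial-like cells held 39.8% of Sema3b UMIs in KI and 37.5% in WT, and type 2 alveolar-like cells 17.3% in KI and 13.4% in WT.

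Sema3e was found in 60.9% of KI and 63.7% of WT type 1 alveolar-like cells, beside 0.563% of KI and 0.508% of WT aerocyte-like cells, which have a higher median depth (3664.5 UMIs in KI and 3231 UMIs in WT, against 2416 UMIs in KI and 2995 UMIs in WT type 1 alveolar-like cells). Among airway epithelial-like cells, too few to compare (49 KI and 65 WT cells), Sema3e had 39 UMIs in KI and 74 UMIs in WT. That is 49.0 CPM [34.9, 67.0] in KI and 70.4 CPM [55.2, 88.3] in WT, above the other 9 types. The part of RNA released from type 1 alveolar cells in it was not tested. Type 2 alveolar-like cells had 3.95 CPM in KI and 1.68 CPM in WT.

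Sema3d, a ligand known from the patterning of pulmonary veins, was a stromal transcript. Adventitial fibroblast-like cells, which surround vessels and airways, held 77.3 CPM in KI and 51.0 CPM in WT, and smooth muscle-like cells 47.3 CPM in KI and 21.1 CPM in WT. Alveolar fibroblast-like cells, of the same class, held 4.39 CPM in KI and 3.51 CPM in WT. No Sema3d UMI was found in pericyte-like, type 1 or type 2 alveolar-like cells, which in pericyte-like cells allows up to 2.58 CPM in KI and 3.36 CPM in WT (3 counts).

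Within the venous-like cluster, which also held the lymphatic markers Ccl21a, Mmrn1 and Prox1, Sema3a and Sema3d lay in very few cells. Cells with UMIs of at least 2 of 5 lymphatic markers (Prox1, Mmrn1, Ccl21a, Reln and Flt4) numbered 1 of 153 in KI and 8 of 172 in WT. These cells held 2 of 2 Sema3d UMIs in KI and 19 of 19 in WT, and 0 of 1 Sema3a UMIs in KI and 13 of 13 in WT. The other 152 KI and 164 WT cells of the cluster therefore had no Sema3d UMI, and 1 Sema3a UMI in KI and 0 in WT. The split was made after these values were seen, and the number of such cells is too small to compare the genotypes.

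Plxna2, a class A plexin that pairs with neuropilins, was a receptor of every endothelial-like type. It stood at 513 CPM in KI and 535 CPM in WT in general capillary-like cells, 531 CPM in KI and 458 CPM in WT in aerocyte-like cells, 434 CPM in KI and 387 CPM in WT in arterial-like cells and 388 CPM in KI and 402 CPM in WT in venous-like cells. The first pair and the last pair of these types were not separable in order. Type 1 alveolar-like cells had 139 CPM in KI and 126 CPM in WT and type 2 alveolar-like cells 99.4 CPM in KI and 117 CPM in WT. In type 2 alveolar-like cells this was 19.5% of the endothelial-like level in KI and 23.8% in WT, above the highest of the 9 endothelial markers (8.68% in KI, 13.5% in WT).

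Plxnd1, the receptor of Sema3e and a partner in Sema3c signalling, had a different spread from all the ligands. Venous-like cells had 58.0 CPM in KI and 48.6 CPM in WT, general capillary-like cells 47.9 CPM in KI and 47.8 CPM in WT, and arterial-like cells 51.9 CPM in KI and 43.7 CPM in WT. Smooth muscle-like cells (46.1 CPM in KI, 35.2 CPM in WT) and alveolar fibroblast-like cells (38.5 CPM in KI, 35.5 CPM in WT) lay beside them, and each of these 5 neighbours in the order overlapped the next. Aerocyte-like cells had 15.8 CPM in KI and 16.9 CPM in WT, with the intervals of both libraries below those of general capillary-like cells. Type 1 alveolar-like cells, where the ligand Sema3e is highest, had 7 Plxnd1 UMIs in KI and 3 in WT (5.83 CPM in KI and 1.71 CPM in WT).

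Set against its endothelial-like level, Plxnd1 stood at 85.1% in KI and 67.5% in WT in adventitial fibroblast-like cells and at 129% in KI and 100.4% in WT in smooth muscle-like cells. The 9 endothelial markers there had medians of 3.22% in KI and 4.10% in WT, and of 8.83% in KI and 5.25% in WT. Sema7a followed the markers in the same cells, at 3.15% in KI and 4.80% in WT in adventitial fibroblast-like cells and at 10.1% in KI and 4.77% in WT in smooth muscle-like cells. The share of Sema7a UMIs outside the endothelium that is free RNA was not tested.

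**Figure D3:**
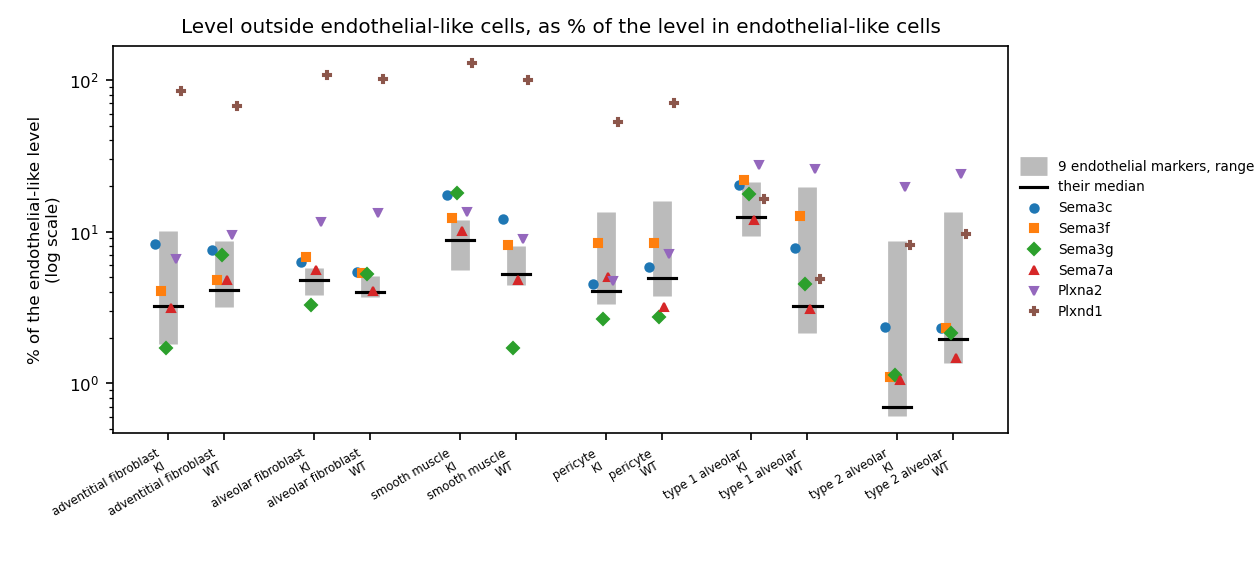
Level of 6 of the genes outside endothelial-like cells as a percentage of their level in endothelial-like cells (log axis), KI left of WT in each type; grey bars span the 9 endothelial markers and black lines are the marker medians. Plxnd1 lies far above the bars in fibroblast-like, smooth muscle-like and pericyte-like cells. Plxna2 lies above them in type 1 and type 2 alveolar-like, alveolar fibroblast-like and smooth muscle-like cells. Sema3c and Sema3f also lie above them in alveolar fibroblast-like and smooth muscle-like cells, while Sema7a lies at or near the median in most columns.

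Likeness of profiles over the 10 types was taken as the Pearson r of log2(CPM + 1), mean of both libraries, with 6482 genes considered. Sema3c was most like Bmp6 (r = 0.990), Sema3f like Tspan13 (0.990), Sema7a like Icam2 (0.993) and Sema3e like Rhof (0.991). Sema3g was most like Hey1 (0.986), a Notch target and one of the arterial markers used here. Plxna2 was most like Stx3 (0.995) and Plxnd1 like Picalm (0.973), while Sema3a had its best match in Got2 (0.944) and Sema3d in Dkc1 (0.980). The 10 points share 2 libraries, and these values are descriptions.

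Set KI over WT over the whole endothelial-like class, Sema7a had the ratio farthest from 0 among Sema3c, Sema3f, Sema3g and Sema7a. By type, Sema3g in arterial-like cells and Sema3f in venous-like cells lay farther from 0 than its highest value. Over all endothelial-like cells it had 7122 UMIs in KI and 5958 UMIs in WT (447 CPM in KI, 354 CPM in WT), a log2 ratio of 0.33 [0.29, 0.38]. In aerocyte-like cells the ratio was 0.51 [0.44, 0.57], and in general capillary-like cells 0.12 [0.04, 0.20], or 0.07 [−0.01, 0.16] without the Myl7-led cluster. Both pooled capillary values lay below those of the clusters led by Plvap (0.21 [0.08, 0.33]) and by Icam5 and Sox11 (0.55 [0.30, 0.80]). The Tmem252-led cluster of that type held 106 KI and 456 WT cells. The part of this cell mix in the pooled ratio was not tested. Sema7a was higher in KI in 7 of 8 endothelial-like clusters, with ratios up to 0.55, and the interval lay above 0 in 6 of them; the venous-like cluster stood at −0.01. Both aerocyte-like clusters had it, at 986 CPM in KI and 688 CPM in WT in the shallower one and 622 CPM in KI and 439 CPM in WT in the other.

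The share of aerocyte-like cells with a Sema7a UMI was 84.6% in KI and 74.8% in WT, and after thinning to 1000 UMIs 50.1% in KI and 41.4% in WT. In type 2 alveolar-like cells the thinned share was 0.420% in KI and 0.444% in WT. Over 13 alternative settings the aerocyte ratio stayed between 0.47 and 0.51, past 0.5 in 8 of them, and over the whole endothelial-like class between 0.29 and 0.42. A ratio past 0.5 in the KI direction was met by 10.3% of the 11097 genes measured in aerocyte-like cells, so a shift of this size was not rare.

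Sema3f moved the other way in the capillary types. Its endothelial-like ratio was −0.24 [−0.29, −0.20], from 7006 UMIs in KI and 8748 UMIs in WT. The ratio was −0.24 [−0.30, −0.18] in aerocyte-like cells, −0.24 [−0.32, −0.16] in general capillary-like cells and −0.57 [−0.84, −0.30] in venous-like cells, against 0.21 [−0.07, 0.49] in arterial-like cells. The venous ratio ranged between −0.59 and −0.06 over 13 alternatives and was past 0.5 in 7 of them. Sema3f was lower in KI in 6 of 8 endothelial-like clusters, with the interval below 0 in 4. No alternative turned the sign of its endothelial-like ratio, which ranged between −0.30 and −0.21.

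Sema3g was higher in KI in arterial-like cells, at 0.57 [0.38, 0.76] from 458 UMIs in 154 KI cells and 443 UMIs in 217 WT cells. Over 11 alternatives this ratio lay between 0.25 and 0.70, past 0.5 in 8 of them. In general capillary-like cells the ratio was 0.24 [0.15, 0.32], but the clusters of that type did not move together. They stood at 0.32 and 0.59 in the clusters led by Plvap and by Icam5 and Sox11, and at −0.19 and −0.21 in those led by Tmem252 and by Myl7 and haemoglobin genes. The thinned share of arterial-like cells with a Sema3g UMI was 44.4% in KI and 43.7% in WT.

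Sema3c, Plxna2 and Plxnd1 had nearly the same endothelial-like levels in both libraries. Sema3c stood at 1012 CPM in KI and 1019 CPM in WT (log2 ratio −0.01 [−0.04, 0.02]), with −0.39 [−0.55, −0.23] in venous-like cells. That venous ratio did not hold under all settings: it was 0.01 with doublets kept and 0.08 at resolution 0.5. Of the 622 KI UMIs 173 lay in 3 cells, against 71 of 674 in WT, which raised the KI level more than the WT level. Plxna2 stood at 509 CPM in KI and 489 CPM in WT (0.06 [0.01, 0.10]), with 0.21 [0.14, 0.28] in aerocyte-like cells. Plxnd1 stood at 35.8 CPM in KI and 35.1 CPM in WT (0.03 [−0.14, 0.20]).

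**Figure D4:**
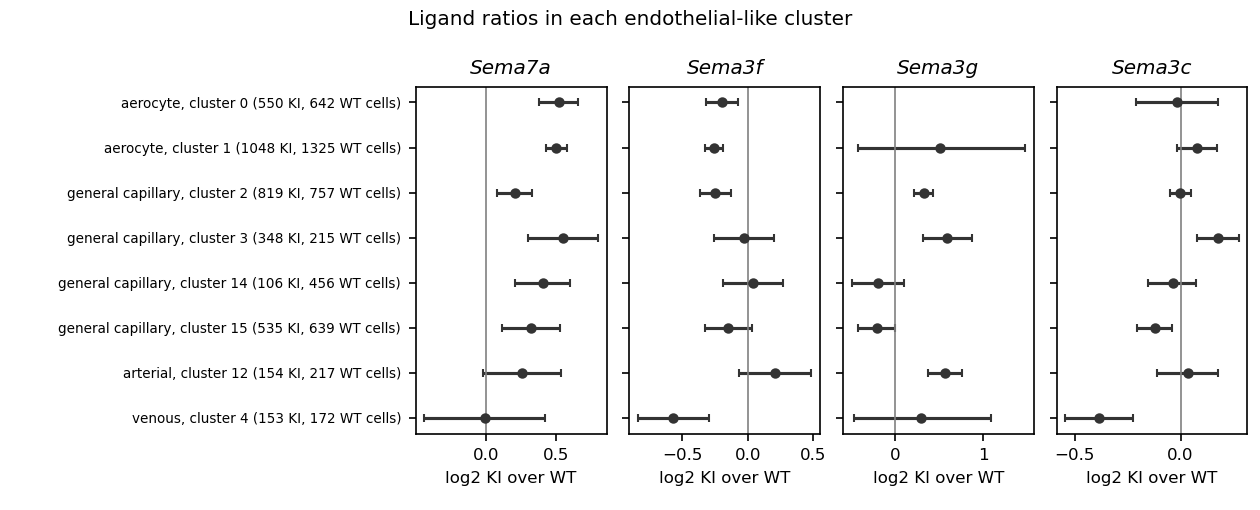
Log2 ratio of KI over WT with its 95% counting interval for 4 ligands in each of the 8 endothelial-like clusters; a point is drawn where the gene had at least 20 UMIs over both libraries. Sema7a lies right of 0 in 7 clusters and Sema3f left of it in 6, while Sema3g and Sema3c lie on both sides.

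Among the 10 genes in endothelial-like cells, 3 passed a log2 ratio of 0.5, all lower in KI, where 17.9% of 12998 genes passed it in either direction and 6.76% in the lower one. They were Sema3a, Sema3d and Sema3e, all more than 20 times below their highest type in both libraries, with 11 to 48 UMIs in KI and 24 to 93 UMIs in WT. Without the cells with lymphatic markers the Sema3d ratio was 0.92 [−0.81, 2.85], from 9 UMIs in KI and 5 UMIs in WT, against −1.05 with them. The median ratio of the 10 genes was 0.01, beside 0.05 for all genes measured. Sema3b had a ratio of 0.30 [0.07, 0.53] in endothelial-like cells, from 349 UMIs in KI and 299 UMIs in WT. In aerocyte-like cells its ratio was 0.48 [0.15, 0.81].

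In aerocyte-like cells 2 of 8 measured genes passed 0.5 (18.1% of all genes), Sema7a higher in KI and Sema3a lower, the second at 43 UMIs in KI and 65 UMIs in WT. In general capillary-like cells 1 of 8 passed (20.8% of all genes), which was Sema3e, lower at 6 UMIs in KI and 14 UMIs in WT. In arterial-like cells 1 of 6 passed (30.2% of all genes), Sema3g, and in venous-like cells 2 of 8 passed (28.7% of all genes), Sema3d and Sema3f, both lower in KI, of which the Sema3f call was lost under 6 of 13 alternatives. In general capillary-like, arterial-like and venous-like cells the share of the measured members past 0.5 was below that of all genes.

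Pooled over type 1 alveolar-like cells, the resident ligands had ratios within 0.5, but the 2 clusters of this type differed. Sema3e had a log2 ratio of 0.10 [−0.05, 0.25], Sema3a −0.29 [−0.54, −0.04] and Sema3b 0.25 [0.01, 0.50]. The deeper of the 2 clusters of this type gave 0.37 [0.21, 0.53] for Sema3e, 0.54 [0.28, 0.80] for Sema3b and −0.03 [−0.30, 0.23] for Sema3a. The shallower one, with a median of 972 UMIs, gave −0.21 [−0.68, 0.28], −0.27 [−1.02, 0.50] and −0.45 [−1.24, 0.36] for the same genes in that order.

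Past 0.5 in type 1 alveolar-like cells were 4 of 8 measured genes, all higher in KI, where 32.4% of 9389 genes passed in either direction and 21.3% in the higher one. These were the endothelial ligands Sema7a (2.30 [1.54, 3.12]; 64 UMIs in KI and 19 in WT), Sema3g (2.20 [1.27, 3.23]; 41 in KI and 13 in WT), Sema3c (1.38 [1.08, 1.69]; 248 in KI and 139 in WT) and Sema3f (0.55 [0.16, 0.93]; 115 in each library). The 9 endothelial markers moved with them, summing to 2107 CPM in KI and 896 CPM in WT with none at 0, and so did the 8 type 2 alveolar markers, at 5417 CPM in KI and 1136 CPM in WT. Of the 41 Sema3g UMIs in KI, 17 lay in 3 cells, against 9 of 13 in WT. For Sema3c, 88 of 248 UMIs in KI and 76 of 139 in WT lay in 3 cells. The 2 clusters of this type gave 2.00 and 2.15 for Sema7a, 1.69 and 1.81 for Sema3g and 0.27 and 1.20 for Sema3c. For these genes the pooled ratio lay above both clusters. Sema3f gave 0.21 and 0.60. The shallower cluster held 113 of 258 KI cells and 136 of 433 WT cells. The part of other cells' RNA in these ratios was not tested. With doublets kept, 1 of these genes passed 0.5, and the Sema3f ratio was past 0.5 in 7 of 13 alternatives.

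Type 2 alveolar-like cells had 3 of 8 measured genes past 0.5 (19.1% of 11355 genes). Sema3e was higher in KI (1.23 [0.14, 2.44]; 27 UMIs in KI and 10 in WT), and Sema3f (−1.31 [−1.95, −0.69]; 33 in KI and 71 in WT) and Sema3g (−0.69 [−1.75, 0.34]; 15 in KI and 21 in WT) were lower. All 3 lay more than 20 times below their highest type. The summed endothelial markers here were also lower, at 273 CPM in KI and 544 CPM in WT, and their part in the Sema3f and Sema3g ratios was not tested. Plxna2, well above that level, had a ratio of −0.23 [−0.38, −0.07].

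In fibroblast-like cells 4 of 10 genes passed 0.5 (25.8% of 11828 genes), Sema3d and Sema3b higher in KI and Sema3e and Sema3g lower. Sema3d had 174 UMIs in KI and 93 UMIs in WT (0.91 [0.54, 1.29]), and within adventitial fibroblast-like cells 165 UMIs in KI and 84 UMIs in WT (0.60 [0.21, 1.00]). That type made up 421 of 1184 fibroblast-like cells in KI and 356 of 1412 in WT. The part of this cell mix in the class ratio was not tested. The 2 adventitial clusters differed: 109 CPM in KI and 61.1 CPM in WT in the one led by Dcn, Lum and Ccl11 (0.84 [0.24, 1.48]), and 54.1 CPM in KI and 46.7 CPM in WT in the one led by Rbp4 and Fgl2 (0.21 [−0.32, 0.76]). With each library clustered alone the adventitial ratio was −0.18. Sema3e had 3 UMIs in KI and 22 UMIs in WT in adventitial fibroblast-like cells, 21 of the WT UMIs in the Dcn-led cluster and 10 of them in 3 cells. In alveolar fibroblast-like cells Sema3b stood at 1.02 [0.07, 2.02] (26 UMIs in KI and 16 in WT). Sema7a stood at 0.78 [0.14, 1.43] there (51 UMIs in KI and 37 in WT).

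In the smooth muscle or pericyte-like class 4 of 8 measured genes passed 0.5 (23.3% of 10420 genes), 3 of them higher in KI. The lower one was Sema3b (−0.66 [−1.89, 0.53]), with 12 UMIs in KI and 15 UMIs in WT. Sema3d rested on smooth muscle-like cells, with 41 UMIs in 28 KI cells and 15 UMIs in 12 WT cells (1.16 [0.28, 2.12] within that type). Sema7a (1.41 [0.45, 2.48]) and Sema3g (3.62 [1.64, 6.73]; 30 UMIs in KI and 2 in WT) were also higher in KI in smooth muscle-like cells. So were Sema3c (0.50 [0.11, 0.90]) and Plxna2 (0.64 [−0.01, 1.32]). Of the 30 Sema3g UMIs in KI, 18 lay in 3 cells, and the summed endothelial markers were 1310 CPM in KI and 1008 CPM in WT in that type. Their part in the Sema3g and Sema7a ratios was not tested. In pericyte-like cells Sema7a stood at 0.99 [−0.11, 2.21] (26 UMIs in KI and 10 in WT). Plxna2 stood at −0.53 [−1.32, 0.25] there (28 UMIs in KI and 31 in WT).

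Among receptors that pair with these ligands some ratios in endothelial-like cells were farther from 0 than those of Sema7a in the same cells. Plxna1, a class A plexin, stood at 121 CPM in KI and 63.3 CPM in WT in endothelial-like cells (0.93 [0.82, 1.04]). In general capillary-like cells it stood at 116 CPM in KI and 39.9 CPM in WT (1.54 [1.36, 1.73]), and in arterial-like cells at 90.1 CPM in KI and 29.8 CPM in WT (1.59 [0.92, 2.30]). It was higher in KI in 8 of 8 endothelial-like clusters, with ratios between 0.44 and 1.77. Outside the endothelium its ratio lay between −0.41 and 0.06 in the 6 other types, and the interval was clear of 0 only in type 1 alveolar-like cells (−0.41 [−0.78, −0.04]).

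Plxna4, another class A plexin, was lower in KI in 8 of 8 endothelial-like clusters, with 52.7 CPM in KI and 85.3 CPM in WT over the class (−0.70 [−0.82, −0.57]). Its interval spanned 0 in the arterial-like cluster (−0.65 [−1.33, 0.01]) and in the one led by Icam5 and Sox11 (−0.16 [−0.63, 0.31]). Outside the endothelium its interval was clear of 0 only in type 2 alveolar-like cells, where it was higher in KI (0.38 [0.15, 0.61]). Nrp1, the co-receptor of class 3 semaphorins and of VEGF, was highest in aerocyte-like cells, at 1617 CPM in KI and 1815 CPM in WT. In general capillary-like cells it stood at 358 CPM in KI and 522 CPM in WT (−0.55 [−0.62, −0.48]), and it was lower in KI in 7 of 8 endothelial-like clusters. Outside the endothelium Nrp1 was higher in KI in type 1 (0.85 [0.60, 1.10]) and type 2 alveolar-like cells (0.34 [0.17, 0.51]). It was lower in alveolar fibroblast-like (−0.27 [−0.40, −0.14]) and pericyte-like cells (−0.49 [−0.76, −0.23]). The part of other cells' RNA in these ratios was not tested. Nrp2 was highest in venous-like cells (93.4 CPM in KI, 113 CPM in WT), alveolar fibroblast-like cells (128 CPM in KI, 150 CPM in WT) and pericyte-like cells (94.4 CPM in KI, 112 CPM in WT). It was lower in adventitial fibroblast-like cells (55.3 CPM in KI, 64.9 CPM in WT) and type 1 alveolar-like cells (53.3 CPM in KI, 69.7 CPM in WT). The Nrp2 level in aerocyte-like cells, where Sema3f is highest, was 1.41 CPM in KI and 6.16 CPM in WT. It rested on 9 UMIs in KI and 42 UMIs in WT.

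Both receptors of Sema7a differed in where they stood. Plxnc1 was near 0 in aerocyte-like cells (0.469 CPM in KI, 1.17 CPM in WT) and reached 50.7 CPM in KI and 38.3 CPM in WT in alveolar fibroblast-like cells. In endothelial-like cells it stood at 8.72 CPM in KI and 15.1 CPM in WT (−0.79 [−1.10, −0.49]). Itgb1 was found in all 10 types, with 559 CPM in KI and 565 CPM in WT in aerocyte-like cells and 1024 CPM in KI and 959 CPM in WT in pericyte-like cells.

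**Figure D5:**
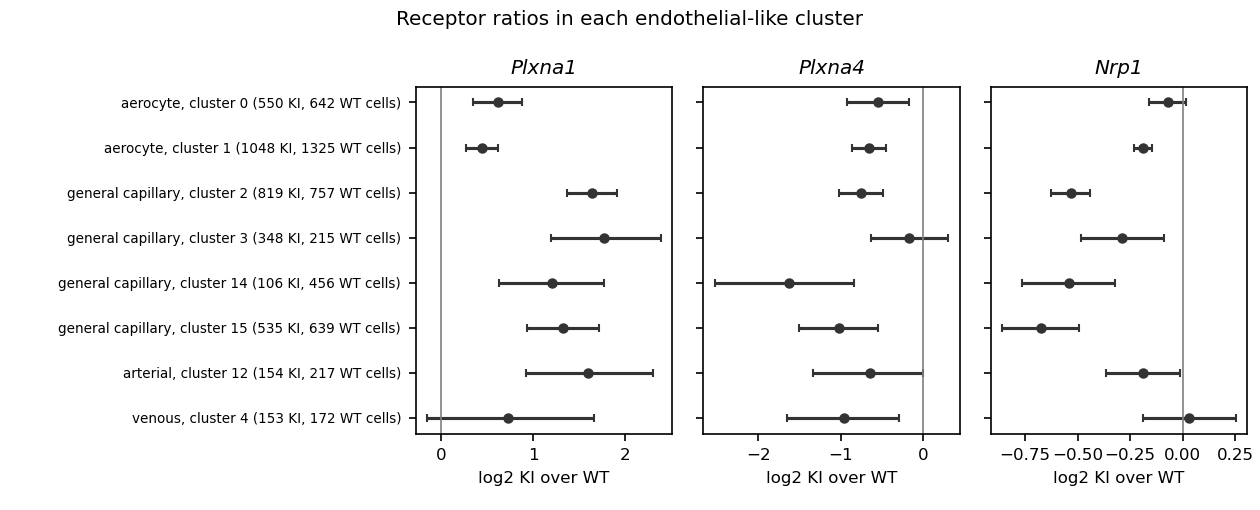
Log2 ratio of KI over WT with its 95% counting interval for Plxna1, Plxna4 and Nrp1 in each of the 8 endothelial-like clusters. Plxna1 lies right of 0 in all 8, Plxna4 left of 0 in all 8 and Nrp1 left of 0 in 7.

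Of the 62 listed pathway genes besides the members, the lists gave mixed directions in endothelial-like cells. Among other plexins 1 of 5 measured genes was past 0.5 higher in KI and 2 lower, and among other semaphorins 2 of 7 were higher and 1 lower. Among plexin partners and effectors 4 of 28 were higher and 1 lower, a share near the 17.9% of all genes. These included Rnd1, a small GTPase that binds plexins (43.9 CPM in KI, 20.6 CPM in WT, 1.09 [0.91, 1.28]), and Mical2, an actin oxidase of the MICAL family (122 CPM in KI, 65.2 CPM in WT, 0.90 [0.80, 1.01]). No neuropilin (of 2) and no alternative receptor or convertase (of 9) passed. Rnd1 rested on the cluster led by Icam5 and Sox11 and the venous-like cluster, which held 641 of its 700 UMIs in KI and 277 of its 346 UMIs in WT. The first of them made up 9.37% of endothelial-like cells in KI and 4.86% in WT. Within it the Rnd1 ratio was 0.50 [0.24, 0.77], within the venous-like cluster 0.81 [0.48, 1.16], and when each cluster was given a single weight shared by KI and WT the class ratio was 0.61. Weighted that way Mical2 stood at 0.88, Plxna1 at 0.93 and Plxna4 at −0.72.

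In fibroblast-like cells Mras, a Ras relative, was higher in KI (13.4 CPM in KI, 6.89 CPM in WT, 0.96 [0.29, 1.66]), and Fes, a kinase of semaphorin signalling, was lower (1.43 CPM in KI, 7.13 CPM in WT, −2.31 [−3.87, −1.03]). In smooth muscle-like cells Mras stood at 53.0 CPM in KI and 9.85 CPM in WT (2.43 [1.27, 3.82]). In type 1 alveolar-like cells Itga1 (2.14 [1.61, 2.70]) and Kdr (1.70 [1.29, 2.12]) were higher in KI and in type 2 alveolar-like cells Kdr was lower (−1.71 [−2.28, −1.16]), the directions of the endothelial markers in those cells. Sema6a (1.84 [0.87, 2.90]) was also higher in KI in type 1 alveolar-like cells. Rnd1 (−0.73 [−1.08, −0.39]), Cdk5 (−1.09 [−1.92, −0.32]) and Arf6 (−0.56 [−1.03, −0.10]) were lower there. In type 2 alveolar-like cells Mras (1.97), Farp2 (0.95) and Sh3bp1 (0.62) were higher, and Sema6d (−1.72) and Dpysl3 (−1.62) lower.

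The genes lie on 5 chromosomes of GRCm38 (GENCODE M21). Sema3d (12383385 to 12588948), Sema3a (13125414 to 13602565), Sema3e (14025276 to 14256689) and Sema3c (17574281 to 17730268) follow each other on the plus strand of chromosome 5. Sema7a (57940112 to 57962865, plus), Sema3b (107597674 to 107609229, minus) and Sema3f (107681500 to 107710475, minus) are on chromosome 9. Sema3g is at chromosome 14, 31217860 to 31230352 (plus), Plxnd1 at chromosome 6, 115954811 to 115995005 (minus), and Plxna2 at chromosome 1, 194618218 to 194816869 (plus). The 4 neighbours on chromosome 5 were highest in 3 different types: Sema3a and Sema3e in type 1 alveolar-like cells, Sema3c in general capillary-like cells and Sema3d in adventitial fibroblast-like cells. On chromosome 9, Sema3b was highest in type 1 alveolar-like cells and the nearby Sema3f in aerocyte-like cells. Of the 10 genes only Sema3e overlaps another gene of the matrices, Gm4128, and reads of the 2 could be confused.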

How the data were processed

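The deposited values are whole UMI counts per gene and barcode, not normalized, and per the file headers software version 3.0.2 wrote both matrices. Per the submitters' processing notes the genome was mm10 (GRCm38), and the tools were R 3.5.3, Seurat 2.3.4 and Cell Ranger 2.0. No deposited barcode had fewer than 500 UMIs. The 10 genes, the pathway lists, the markers and the thresholds were chosen with earlier results of these data known.

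Barcodes with at least 200 genes and at most 10% mitochondrial UMIs were kept (7161 KI and 8417 WT). Scrublet in scanpy 1.11.5 marked 0 doublets by its automatic threshold in both libraries, so the expected rate of 0.8% per 1000 barcodes was used instead (525 KI and 682 WT of the kept barcodes were left out). Cells of both libraries were clustered together without integration: 2000 variable genes per library, 30 principal components, 15 neighbours and Leiden resolution 1, with the 10 genes and 62 pathway genes left out. A cluster took the class with the highest mean marker score, and needed at least 3 detected markers and a score of 0.5. After the first naming was seen, clusters were left unnamed when a second class scored at least 0.6 of the first, or when none of their leading genes was a marker and under 75% (0.75) of the markers were raised; 4 of 26 clusters were unnamed. The largest had pericyte markers with endothelial markers (110 KI and 107 WT cells).

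UMIs were summed per library and type and divided by all UMIs of the type (CPM). A class needed 100 cells and a type 50 cells in both libraries. Log2 ratios are KI over WT, with exact conditional binomial 95% intervals; levels have exact Poisson and shares exact Clopper-Pearson intervals (scipy 1.17.1), all for counting error only. A gene was measured in a class with at least 20 UMIs over both libraries, and past the threshold beyond a log2 ratio of 0.5. With 1 library per group no test was run. All 10 genes were described, but not every measured ratio is printed. List genes were drawn from up to 3 with the highest and 3 with the lowest ratio past 0.5 per class. Not all of these are printed either. Nrp1, Nrp2, Plxnc1 and Itgb1 were added as receptors. The ratios were checked on simulated counts. Alternatives covered doublets, cell filters, resolution, separate clustering, weighting and scaling. The profile match of Sema3b is not reported here.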

Additional observations from a re-analysis of the deposited data

Results flagged for a closer look

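Some genes moved in opposite directions in different cell types, each with a log2 ratio of KI over WT past 0.5, a counting interval clear of 0 and at least 20 UMIs in both types. The difference between the types was not tested, since each genotype has 1 library. Sema3d stood at 0.60 in adventitial fibroblast-like and 1.16 in smooth muscle-like cells, against −3.52 in venous-like cells, where the UMIs lay in cells with lymphatic markers. Sema3e stood at 1.23 in type 2 alveolar-like and −3.25 in adventitial fibroblast-like cells. Sema3f stood at 0.55 in type 1 alveolar-like cells, against −1.31 in type 2 alveolar-like and −0.57 in venous-like cells. Sema3g stood at 2.20 in type 1 alveolar-like, 0.57 in arterial-like and 3.62 in smooth muscle-like cells, against −1.81 in adventitial fibroblast-like cells. Of these 12 values, those in alveolar-like, smooth muscle-like and fibroblast-like cells other than Sema3d rest on levels far below the highest type of the gene, where RNA of other cells was not tested. The venous Sema3f ratio ranged between −0.59 and −0.06 over 13 alternatives, past 0.5 in 7, as was the type 1 alveolar Sema3f ratio, and the arterial Sema3g ratio was past 0.5 in 8 of 11.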

How the results depend on the processing

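Of 1339 alternative values for 104 ratios of measured genes, 121 had the opposite sign. Of these, 108 belonged to ratios within 0.5 whose counting interval spanned 0, and 2 to the venous Sema3c ratio (0.0069 with doublets kept and 0.084 at resolution 0.5). The other 11 belonged to ratios past 0.5. They came with each library clustered alone for Sema3d (1.99 in endothelial-like, −0.077 in fibroblast-like and −0.18 in adventitial fibroblast-like cells) and, in the smooth muscle or pericyte-like class with mixed clusters put back, for Sema3b (0.11) and Sema3g (−0.15). They also came for Sema3g in type 2 alveolar-like cells with doublets kept (0.089) and with no cell filter (0.18), for Sema7a in alveolar fibroblast-like cells with the stricter filter (−0.033) and in pericyte-like cells with no filter (−0.0077), and for Plxna2 in smooth muscle-like cells with cells weighted equally (−0.0084). Without cells with lymphatic markers the endothelial-like Sema3d ratio was 0.92.

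The count of genes past 0.5 fell in endothelial-like cells to 1 of 3 with the stricter filter and with a limit of 1, in fibroblast-like cells to 2 of 4 with doublets kept and with no filter and to 1 with a limit of 1. It was 2 of 4 in the smooth muscle or pericyte-like class with the stricter filter, with mixed clusters put back and with at least 50 UMIs. It was 1 of 4 in type 1 alveolar-like cells with doublets kept and with no filter, and in type 2 alveolar-like cells 0 of 3 with no filter and 1 with at least 50 UMIs and with cells weighted equally. The cause of these shifts was not tested. Putting mixed clusters back, leaving out the Inhbb-led or the Myl7-led capillary cluster, leaving out cells with lymphatic markers and equal cluster weights for the receptors were chosen after seeing the data. The endothelial ratios of Sema7a, Sema3f, Sema3g and Sema3b kept their sign in all 13 settings. Depth limits all values under 20 UMIs. No paired analysis was possible because each genotype has 1 library and the labels give no replicate numbers.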
